A study of Mus musculus with 5 samples.

Results

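The genes described here are 46 genes of G2 phase and mitosis, taken by symbol from a list and all present among the 55450 genes of the count tables. They fall into 9 roles, from the cyclin-CDK core that starts mitosis to the proteins that divide the cell at its end. Their levels, the share of cells carrying their RNA and their differences between cell classes were followed through 5 droplet-based single-cell libraries (10x Genomics, reading the 3' ends of transcripts) from bone marrow of wild-type (WT) Balb/C mice aged 8 to 12 weeks. Marrow was first enriched for c-Kit, and lineage-negative c-Kit+ cells were then sorted into 3 progenitor populations, with no treatment named. LMPP (lymphoid-primed multipotent progenitors) were Sca-1+ CD34+ Flt3+ and gave 1 library. CMP (common myeloid progenitors) were Sca-1- CD34+ CD16/32low and gave 1 library. GMP (granulocyte-monocyte progenitors) were Sca-1- CD34+ CD16/32high and gave 3 libraries, described as biological replicates; whether these are separate mice is not said. How many mice went into a library is not given in the sources used here, and each gate collects a mixture of cell classes.

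Entry into mitosis is driven by the kinase Cdk1 with its B-type cyclins, which the Aurora and polo-like kinases help to switch on. Kinetochores then attach chromosomes to the spindle, the anaphase-promoting complex with Cdc20 destroys cyclin B and the inhibitor of chromatid separation, and the central spindle guides the cut between the daughter cells. The RNAs of these genes accumulate as a cell passes from S phase through G2 and drop after division. In marrow many myeloid progenitors are in cycle, whereas long-term stem cells are largely quiescent.

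The libraries held 7389 to 9993 deposited barcodes and 90067195 to 137141095 UMIs (unique molecular identifiers, which count RNA molecules), and 6853 to 8916 cells a library were kept. Median UMIs per cell were 9455 in LMPP, 10168 in CMP, and 10820, 12805 and 15168 in GMP replicates 1, 2 and 3. Pairs of libraries shared 12 to 24 cell barcodes, at most 0.331% of a library. RNA of antigens that separate the gates followed them. In CPM, the UMIs of a gene scaled to an equal total for each library, LMPP had 129 for Flt3, CMP 48.7 and GMP 4.47 ± 0.394 (SD, n = 3), and for Ly6a, which encodes Sca-1, the levels were 17.6, 0.998 and 0.898 ± 0.142. Fcgr3, a CD16/32 receptor gene, ran in the other order, from 2.95 CPM for LMPP to 10.3 for CMP and 41.2 ± 4.98 for GMP. Differences between libraries depended on the scaling. TMM factors, which centre the bulk of genes on no change, ran from 0.850, 0.887 and 0.901 in the GMP libraries to 1.09 in CMP and 1.35 in LMPP. Member differences are therefore given under TMM and under total UMIs, beside the median of all genes.

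Summed over the 46 genes, member RNA took 0.555% of UMIs in LMPP (exact Poisson 95% interval 0.553 to 0.556) and 0.410% in CMP (0.408 to 0.411). In GMP replicates 1, 2 and 3 it took 0.425, 0.488 and 0.462% (mean 0.459 ± 0.0316, SD, n = 3). LMPP thus lay above all 3 GMP libraries and CMP below them, on the scale of total UMIs. An exact permutation test of 3 libraries against 1 cannot go below 0.25, so none is given. Without Hmgb2, Top2a, Smc4, Cks1b and Cks2, the 5 members with the most UMIs, the sum was 0.321% in LMPP, 0.231% in CMP and 0.241% ± 0.0158 in GMP. When every cell weighed the same, however, LMPP and GMP had equal levels, 0.422% and 0.422% ± 0.029, with CMP at 0.320%. In such sums fewer cells in G2 or mitosis and less RNA per cell cannot be told apart, and the intervals cover counting error only.

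How the same RNA was spread over cells differed between the populations. Each cell was thinned to 5000 UMIs, which left out 1051 LMPP, 792 CMP and 903, 542 and 341 GMP cells with fewer. The median cell then held 10 member UMIs in LMPP, 8 in CMP, and 16, 20 and 18 in GMP replicates 1, 2 and 3. At the upper end LMPP and CMP lay above GMP, as 20.6% of LMPP cells and 13.5% of CMP cells held 40 or more member UMIs, against 8.75, 11.8 and 9.81% of GMP cells. Cells with 5 or fewer member UMIs made up 20.8% of LMPP and 28.2% of CMP, but 5.60, 1.91 and 2.61% of GMP. The 10% of cells richest in member RNA held 38.4% of all member UMIs in LMPP and 38.5% in CMP, against 23.4, 21.7 and 22.2% in GMP. Member RNA was therefore concentrated in a minority of LMPP and CMP cells and spread more evenly over GMP cells.

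**Figure D1:**
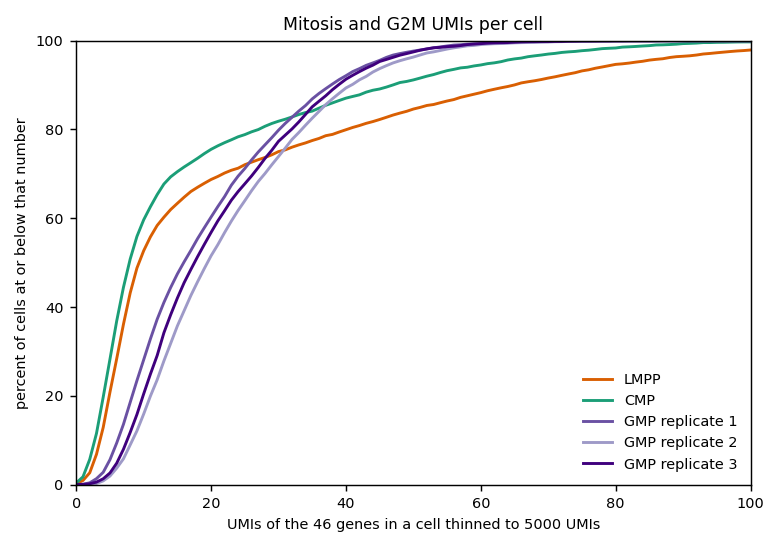
Member UMIs per cell after thinning to 5000 UMIs, drawn for each library as the percent of cells at or below a number of UMIs (y axis) against that number (x axis). The LMPP and CMP lines start above the 3 GMP lines, with more cells at 5 or fewer UMIs (20.8 and 28.2% against 1.91 to 5.60%), and end below them, with more cells at 40 or more.

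The same contrast appeared when cells were chosen without any member. Cells with 5 or more UMIs of 44 further G2 and mitosis genes were called G2M-high, and made up 40.9% of LMPP (exact Clopper-Pearson 95% interval 39.7 to 42.1), 32.2% of CMP (31 to 33.4), and 57.3, 68.1 and 62.3% of GMP libraries (mean 62.5 ± 5.40). Within G2M-high cells, member RNA took 0.906% of UMIs in LMPP and 0.753% in CMP, but 0.528, 0.547 and 0.532% in GMP. In the other cells it took 0.15% in LMPP and 0.143% in CMP, against 0.223, 0.272 and 0.253% in GMP. A G2M-high cell held 17.5 different members on average in LMPP and 16.5 in CMP, against 13.8 ± 0.185 in GMP. The class is a range on a score rather than a cell type: 10.7% of LMPP, 9.87% of CMP and 18.4 to 19.7% of GMP cells held the UMI number at its limit or 1 below it. At 10 or more UMIs the shares were 27.1% for LMPP, 19.0% for CMP and 25.2% ± 2.99 for GMP, so that all 3 GMP libraries lay above LMPP at the limit of 5, and only GMP replicate 2 (28.3%) at that of 10. G2M-high cells also held more RNA in all before thinning, with median UMIs of 14546.5 against 8864 in the other LMPP cells and 13004.5 against 9933 in GMP replicate 1. The part of free RNA and of total RNA per cell in these shares was not tested.

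Shares of cells with at least 1 UMI differed in direction between members. At 5000 UMIs, 22 of the 46 members were found in a smaller share of LMPP cells than in any GMP library, 17 in a larger share than in all 3 GMP libraries and 7 in between; without thinning these were 27, 4 and 15. In CMP 38 lay below all GMP libraries, 4 above and 4 in between. No such counts over all genes are given, so these do not set the members apart from other genes. Birc5 (survivin, of the chromosomal passenger complex) was found in 32.0% of LMPP and 27.6% of CMP cells at 5000 UMIs, and in 50.3, 56.5 and 53.0% of GMP cells; without thinning the shares were 39.2, 36.5 and 72.1% ± 6.56. Ube2c, the ubiquitin-conjugating enzyme of the anaphase-promoting complex, was found in 24.9% of LMPP, 21.2% of CMP and 39.1% ± 4.11 of GMP cells (33.1, 30.3 and 57.5% ± 7.72 without thinning). Aspm, a spindle pole protein, was found in 12.1% of LMPP cells against 5.43% of CMP and 6.04% ± 0.783 of GMP (19.9, 11 and 15.2% ± 2.93 without thinning). Its LMPP share stood above the other 4 libraries, whereas that of Birc5 stood below all GMP libraries. Hjurp, the chaperone that loads the centromere histone, was likewise found in 40.0% of LMPP cells against 22.3, 23.3 and 24.8% of GMP cells, and Kif23 in 27.0% against 10.7, 12.5 and 12%; without thinning Hjurp had 58.3% against 47.7% ± 6.56 and Kif23 41.5% against 26.7% ± 4.05. No cell class here is known to lack these genes. The lowest share of Ube2c among classes of CMP, in lymphoid-primed-like cells, was 16.7% at a median depth of 11960.5 UMIs, against 25.8% in erythroid-like cells at 10977 UMIs.

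GMP was first compared with CMP, the population that precedes it in the classical scheme of myeloid differentiation. With TMM scaling, most cyclin-CDK, mitotic kinase and passenger complex genes were higher in GMP, while most spindle, kinetochore and cytokinesis genes did not pass the test. Under TMM, 17 of the 46 members were higher in GMP, 1 (Psrc1) was lower and 28 did not pass, at 0.05 by edgeR's quasi-likelihood test, with p-values adjusted by Benjamini-Hochberg over 19797 genes. Over all genes 13.5% were called higher and 18.9% lower, so that the share of members called higher lay above that background and the share called lower below it. The median member difference was 0.36 (log2), against -0.04 over all genes. Under total UMIs 5 members were higher (Aurka, Birc5, Cdca3, Cdca8 and Cks1b) and 2 lower (Psrc1 and Pimreg), at a background of 7.26% and 30.2%, where the share called higher was near that of all genes. The medians were then 0.05 for members and -0.34 for all genes, so that members lay 0.40 above the median gene under TMM and 0.39 under total UMIs. Without GMP replicate 1, which had the lowest summed level of the 3, 29 members were higher, without replicate 2 only 8, and without replicate 3 15. For the fits with a GMP replicate left out, the share of all genes called is not given, so their counts have no background. The spread in this test comes from the 3 GMP libraries alone and is taken to hold for the single CMP and LMPP libraries too.

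GMP was then compared with LMPP, the multipotent population of the series. With TMM scaling, most cyclin-CDK genes and all 3 genes grouped as anaphase-promoting complex partners were higher in GMP. A small set led by Aspm and Kif23 was lower. Under TMM 16 members were higher, 5 lower (Aspm, Kif23, Mki67, Psrc1 and Hjurp) and 25 did not pass, beside 25.9% of all genes called higher and 31.5% lower. Under total UMIs 5 were higher (Birc5, Ccnb1, Cdca3, Cdca8 and Cks1b) and 25 lower, against 10.9% and 51.9% of all genes. The shares of members called lower were thus near those of all genes under total UMIs and below them under TMM. Members lay 0.29 above the median gene under TMM (0.19 against -0.09) and 0.27 under total UMIs (-0.43 against -0.70). Leaving out GMP replicates 1, 2 and 3 in turn gave 22, 12 and 14 members higher and 8, 6 and 5 lower. Here too, no share of all genes is given for the fits with a replicate left out. Both comparisons share the GMP libraries, so they are not independent. Birc5, Cdca3, Cdca8 and Cks1b were called higher in GMP under both scalings in each comparison, and Psrc1 was called lower.

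In the cyclin-CDK core, 4 of 6 members were higher than in CMP and 5 of 6 higher than in LMPP. Over all genes 13.5% and 25.9% were called higher under TMM, which is the background for the other roles as well. Cks1b, a small subunit that binds CDKs (gene at chr3:89415472-89418383, GRCm38), reached 209 CPM in LMPP, 194 in CMP and 242, 303 and 294 in GMP replicates 1, 2 and 3, with no overlap between GMP and either population. Its log2 difference was 0.83 ± 0.15 (SE, adjusted p = 0.00532) from CMP and 1.04 ± 0.16 (adjusted p = 0.000998) from LMPP, and 0.53 and 0.42 under total UMIs (adjusted p = 0.0348 and 0.0491). Cks2, its paralog, stood at 175, 199 and 198, 243 and 248 CPM in the same order of libraries, so that GMP replicate 1 lay level with CMP; the differences were 0.51 ± 0.15 and 1.01 ± 0.16. Ccnb1, cyclin B1 (chr13:100778650-100786570), was at 29.9 CPM in LMPP against 38.9 in CMP and 42.3, 50.3 and 44.2 in GMP, all above both (0.54 ± 0.14 from CMP and 1.23 ± 0.15 from LMPP). Cdk1 itself ranged from 64.6 CPM in CMP to 84.9 in GMP replicate 2 and was higher under TMM (0.59 ± 0.14 and 0.54 ± 0.14), but its difference from LMPP turned to -0.08 under total UMIs. Ccnb2 was higher than LMPP alone (0.66 ± 0.13), and Cdc25c, the phosphatase that activates Cdk1, passed neither test under TMM. The pseudogenes of Ccnb1 and Ccnb2 and the Cks1b copy Cks1brt held 36, 270 and 130 UMIs in all, beside 20787, 44964 and 126376 for the genes themselves.

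Among mitotic kinases, Aurka, Plk1, Ttk and Bub1 were higher than in CMP, and Aurka and Plk1 were higher than in LMPP. Aurka, the Aurora kinase of centrosomes and spindle poles (chr2:172356190-172370535), had 27.8 CPM in LMPP and 20.9 in CMP, with 27.0, 33.2 and 30.4 in GMP. All GMP libraries lay above CMP, while replicate 1 lay below LMPP; the differences were 0.83 ± 0.15 (adjusted p = 0.00488) and 0.74 ± 0.15 (adjusted p = 0.00411). Bub1, a kinase of the spindle checkpoint (chr2:127801122-127831865), reached 39.0 CPM in LMPP, 21.2 in CMP and 21.3, 29.3 and 26.5 in GMP. Its GMP libraries lay between the other populations, 0.58 ± 0.18 above CMP (adjusted p = 0.0396) and at 0.01 ± 0.17 from LMPP. Nek2, a centrosome kinase, passed neither test under TMM. Under total UMIs Aurka alone of the 5 stayed higher than CMP, and Nek2, Ttk and Bub1 were lower than LMPP. Over all genes 7.26% were called higher than CMP and 51.9% lower than LMPP under that scaling.

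All 3 genes grouped as partners of the anaphase-promoting complex were higher than in LMPP under TMM, and Ube2c and Cdca3 were higher than in CMP. Cdca3, an adaptor of a ubiquitin ligase that acts on the inhibitor of mitotic entry Wee1 (chr6:124829547-124833701), was at 50.1 CPM in LMPP against 55.4 in CMP and 80.1, 85.2 and 84.5 in GMP. The GMP libraries were close together and above both populations, by 0.89 ± 0.13 over CMP (adjusted p = 0.00157) and 1.35 ± 0.13 over LMPP (adjusted p = 0.000132). Ube2c had 170 CPM in LMPP and 150 in CMP, with 168, 210 and 196 in GMP, where replicate 1 lay just under LMPP (0.66 ± 0.15 and 0.79 ± 0.15 under TMM). Cdc20, the activator of the complex, was higher than LMPP (0.95 ± 0.14) and at 0.35 ± 0.13 from CMP (adjusted p = 0.0775). Of these genes Cdca3 alone was called under total UMIs, in each comparison.

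Of the 6 centromere and kinetochore genes, 1 passed against CMP and 2 against LMPP, in opposite directions. Nuf2, of the complex that binds spindle microtubules (chr1:169497934-169531464), reached 25.4 CPM in LMPP, 16.5 in CMP and 16.4, 23.1 and 21.4 in GMP. GMP replicate 1 overlapped CMP, and the difference of 0.60 ± 0.19 had an adjusted p = 0.0447. Hjurp, the chaperone that loads the centromeric histone (chr1:88262471-88277633), was at 133 CPM in LMPP against 67.8 in CMP and 54.7, 58.1 and 62.8 in GMP, and so fell from LMPP to GMP by 0.56 ± 0.12 on the log2 scale (adjusted p = 0.00537). Cenpa, that histone, stood at 138, 126 and 118, 127 and 114 CPM in the same order. It was called higher than LMPP under TMM (0.42 ± 0.13) although every GMP library lay below LMPP in CPM, and its value under total UMIs was -0.20. Cenpf, a protein of the outer kinetochore, had 208 CPM in LMPP and 143 in CMP, with 121.5, 120 and 105 in GMP, below both in CPM, and passed neither test under TMM. Under total UMIs Hjurp, Ndc80, Cenpe and Cenpf were lower than LMPP, beside 51.9% of all genes.

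All 3 genes of the chromosomal passenger complex were higher than in CMP, and Birc5 and Cdca8 higher than in LMPP. Birc5 (chr11:117849251-117855743) reached 150 CPM in LMPP, 129 in CMP and 189, 211 and 196 in GMP, with every GMP library above both. It differed by 0.93 ± 0.13 from CMP (adjusted p = 0.00173) and 1.03 ± 0.14 from LMPP (adjusted p = 0.000524), and by 0.62 and 0.41 under total UMIs. Cdca8, borealin (chr4:124918465-124939311), stood at 168, 163 and 217, 226 and 212 CPM in that order, again without overlap, and differed by 0.73 ± 0.13 and 1.0 ± 0.14. Aurkb, the kinase of the complex, ranged from 34.5 CPM in GMP replicate 1 to 51.4 in replicate 3, a spread that took in CMP (34.9) and LMPP (48.9). It was called higher than CMP (0.67 ± 0.21, adjusted p = 0.0419) and not against LMPP (0.50 ± 0.20, adjusted p = 0.0698).

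Of the 13 spindle motors and microtubule binders, 1 was higher and 1 lower than in CMP, and 2 were higher and 2 lower than in LMPP. Tpx2, which activates Aurora A on the spindle (chr2:152847964-152895321), was higher than CMP (0.43 ± 0.13) and was at 126 CPM in LMPP against 86.9 in CMP and 87.4, 102 and 94.6 in GMP. Kif2c, which takes microtubules apart, and Tacc3, of the spindle, were higher than LMPP (0.45 ± 0.14 and 0.70 ± 0.15). Psrc1, a microtubule binder of the spindle (chr3:108383839-108388231), had 13.2 CPM in LMPP and 13.3 in CMP, with 5.65, 5.70 and 5.15 in GMP, where the libraries lay close together and well below both populations. It fell by 0.96 ± 0.16 against CMP (adjusted p = 0.00291) and by 0.63 ± 0.16 against LMPP (adjusted p = 0.0104). Aspm (chr1:139454772-139494091) reached 50.3 CPM in LMPP, 17.7 in CMP and 13.1, 16.6 and 15 in GMP. It was lower than LMPP (-1.14 ± 0.14, adjusted p = 0.000441), with a TMM difference of 0.06 ± 0.15 from CMP, although every GMP library lay below CMP in CPM. Nusap1, which bundles spindle microtubules, was at 188 CPM in LMPP against 113 in CMP and 112, 114 and 92.0 in GMP and passed neither test under TMM. Gtse1, the member with the fewest UMIs, ranged from 2.16 to 3.30 CPM. Under total UMIs 9 of the 13 were lower than LMPP, beside 51.9% of all genes.

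Among the genes of chromosome structure and the nuclear envelope, Smc4 and Hmgb2 were higher than CMP. Hmgb2, a DNA-bending chromatin protein (chr8:57511907-57515999), had 1235 CPM in LMPP and 912 in CMP, with 1094, 1155 and 1101 in GMP, between the other populations. Its differences were 0.60 ± 0.14 from CMP (adjusted p = 0.0158) and 0.48 ± 0.14 from LMPP (adjusted p = 0.0225), the second of which turned to -0.15 under total UMIs. Smc4, of the condensin complex that compacts chromosomes, stood at 293, 201 and 214, 295 and 296 CPM in that order, and differed by 0.72 ± 0.19 from CMP. Top2a, the topoisomerase that untangles sister chromatids (chr11:98992943-99024189), reached 431 CPM in LMPP, 281 in CMP and 253, 320 and 278 in GMP and passed neither test under TMM. Mki67, which coats mitotic chromosomes and is the common marker of dividing cells (chr7:135689784-135716361), was at 396 CPM in LMPP against 185 in CMP and 129, 164 and 155 in GMP. It was lower than LMPP (-0.79 ± 0.14, adjusted p = 0.0024) and at 0.00 ± 0.15 from CMP, although every GMP library lay below CMP in CPM. In CPM, GMP thus had the lowest Mki67 and the highest Birc5 of the 3 populations. Cdca2, which brings a phosphatase to chromosomes at mitotic exit, and Tmpo passed neither test under TMM. Mki67 was called lower than LMPP under total UMIs as well, where 51.9% of all genes were called lower.

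Of the 3 cytokinesis genes, Kif23 was lower than in LMPP and the others passed neither test under TMM. Kif23, a motor of the central spindle (chr9:61915905-61946774), had 82.0 CPM in LMPP and 37.5 in CMP, with 27.3, 30.2 and 30.2 in GMP, and was lower than LMPP (-0.87 ± 0.12, adjusted p = 0.000657). Ect2, the exchange factor that starts the furrow, reached 23 CPM in LMPP, 9.78 in CMP and 8.30, 13.1 and 12.7 in GMP. Anln, anillin of the furrow, had 22, 12.5 and 11.4, 14.2 and 12.3 CPM in the same order. Each had its highest level in LMPP, and under total UMIs all 3 were lower in GMP than there, beside 51.9% of all genes. Pimreg, a mitotic regulator placed outside these roles, was at 25.1 CPM in LMPP against 26.2 in CMP and 18.5, 19.5 and 17 in GMP and passed neither test under TMM.

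Promoter sequence is shown for members at both ends of this range, Birc5 and Aurka, which were higher in GMP than CMP under both scalings, and Kif23 and Mki67, which were lower in GMP than LMPP under both, with Top2a added as the window with the most motif copies of these. RefSeq promoter windows (GRCm38.p6) matched 39 of the 46 members, with 43 windows. Each sequence is the 250 bases before the RefSeq start, 5′ to 3′ on the strand of the gene: chr11:117848987-117849236 for Birc5 on the plus strand, and on the minus strand chr2:172370571-172370820 for Aurka, chr9:61946800-61947049 for Kif23, chr7:135716380-135716629 for Mki67 and chr11:99024190-99024439 for Top2a. Capitals mark CCAAT, the box bound by NF-Y, and TTTGAA, the cell cycle homology region, each on either strand (ATTGG and TTCAAA on the other).
Birc5: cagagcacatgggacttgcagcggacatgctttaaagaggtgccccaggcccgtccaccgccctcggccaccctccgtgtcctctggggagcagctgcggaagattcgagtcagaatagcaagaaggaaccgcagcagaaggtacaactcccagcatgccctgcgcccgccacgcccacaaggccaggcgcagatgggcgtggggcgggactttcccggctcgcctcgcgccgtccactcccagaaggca
Aurka: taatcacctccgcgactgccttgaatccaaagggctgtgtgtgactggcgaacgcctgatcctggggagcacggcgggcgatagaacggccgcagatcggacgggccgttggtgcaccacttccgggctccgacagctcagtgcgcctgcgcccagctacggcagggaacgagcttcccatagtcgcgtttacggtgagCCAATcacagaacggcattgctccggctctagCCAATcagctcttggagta
Kif23: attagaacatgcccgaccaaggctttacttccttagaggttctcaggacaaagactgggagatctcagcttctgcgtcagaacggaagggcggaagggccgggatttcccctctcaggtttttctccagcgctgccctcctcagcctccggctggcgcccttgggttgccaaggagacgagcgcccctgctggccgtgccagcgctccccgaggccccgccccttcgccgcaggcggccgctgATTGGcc
Mki67: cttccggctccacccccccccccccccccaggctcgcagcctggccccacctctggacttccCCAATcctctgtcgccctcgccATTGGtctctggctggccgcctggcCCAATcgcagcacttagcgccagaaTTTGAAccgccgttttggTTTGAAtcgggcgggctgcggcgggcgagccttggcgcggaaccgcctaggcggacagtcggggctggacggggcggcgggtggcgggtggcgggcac
Top2a: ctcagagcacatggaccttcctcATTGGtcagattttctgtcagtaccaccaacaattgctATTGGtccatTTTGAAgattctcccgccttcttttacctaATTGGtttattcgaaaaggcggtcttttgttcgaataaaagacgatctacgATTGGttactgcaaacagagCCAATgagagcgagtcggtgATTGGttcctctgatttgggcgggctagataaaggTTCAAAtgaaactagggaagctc

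CCAAT was found in 34 of the 43 member windows (79.1%), against 33.8% of 32851 promoter windows of the same length, and 2 or more copies in 58.1% against 10.1%. TTTGAA was found in 15 windows (34.9% against 16%), and both motifs in 30.2% against 5.55%. Among the printed windows, Birc5 held neither motif and Aurka 2 CCAAT boxes, while Kif23 held 1 CCAAT box and Mki67 3, with 2 copies of TTTGAA. Top2a held 6 CCAAT boxes and 2 copies of TTTGAA. A match is a run of letters and not a shown binding site, and a window without one shows only that these letters are not in it.

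CMP and LMPP have 1 library each, so their difference has no replicate check and no test. On total UMIs 37 members were lower in CMP with exact counting intervals that left out 0, 5 were higher and 4 had intervals that took in 0, beside 58.3% of all genes lower and 26.1% higher by the same criterion. The median was -0.50, against -0.27 for these 14377 genes, which had 100 or more UMIs in the pair. With TMM factors, which shift every gene by 0.31, the counts were 28 lower, 14 higher and 4 undecided, beside 38.3% of all genes lower and 44.1% higher. The lower side was led by Aspm (-1.51, 95% interval -1.59 to -1.42), Ect2 (-1.23, -1.35 to -1.11), Kif23 (-1.13, -1.19 to -1.07) and Mki67 (-1.10, -1.13 to -1.07), the 4 members that were 2-fold or more lower. Over all these genes 17.1% were 2-fold lower and 2.55% 2-fold higher. The higher side held Ccnb1 (0.38, 0.31 to 0.46), Cdc20 (0.28, 0.22 to 0.34), Cks2, Ccnb2 and Cdca3. These intervals hold no spread between animals or libraries.

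Genes of the cycle that are not members were counted in the same fits. Of the 44 further G2 and mitosis genes, 16 were higher and 1 lower in GMP against CMP under TMM, and of 43 S phase genes 14 and 1. Sgo2a, which protects centromeric cohesion, differed by 1.40 ± 0.15 (adjusted p = 0.00044) and Spc24, of the kinetochore, by 0.92 ± 0.13. Rrm2, the small subunit of ribonucleotide reductase, differed by 1.37 ± 0.14 (adjusted p = 0.000325) and Ccne2, cyclin E2, by 0.96 ± 0.17. Against LMPP the counts were 11 higher and 3 lower for the further G2 genes and 22 and 1 for S phase genes. Pttg1, securin, differed by 1.31 ± 0.22, Cdkn3, a CDK phosphatase, by 1.30 ± 0.16, Rrm2 by 1.33 ± 0.14 and Mcm5, of the replicative helicase, by 1.14 ± 0.16. Under total UMIs the further G2 genes had 5 higher and 2 lower against CMP and 2 and 27 against LMPP, and the S phase genes 7 and 3, and 3 and 15. The medians above that of all genes were 0.45 and 0.33 against CMP and 0.17 and 0.47 against LMPP for the G2 and S lists under TMM, beside 0.40 and 0.29 for members.

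Of the 5 members lower in GMP than LMPP, 4 had 5000 or more exonic bases. Across the 46 members the TMM difference from LMPP fell with the exonic length of the gene (GENCODE annotation), with a Spearman correlation of -0.68, against -0.11 across all tested genes. The 5 members under 2500 exonic bases (Ccnb2, Cdc20, Cks1b, Cks2 and Plk1) were all called higher, with a median of 0.95. Of the 21 members from 2500 to 5000 bases, 9 were higher and 1 lower (median 0.45), and of the 20 of 5000 bases or more, 2 were higher and 4 lower (median -0.18). Over all tested genes of these 3 ranges the medians were 0.06, -0.02 and -0.23, so that the member median lay above that of all genes in each. No share of all genes called is given by length range, so the counts of calls have no background. The Spearman correlation was -0.43 for GMP against CMP and -0.69 for CMP against LMPP. In the further G2 genes it was weak (-0.09 against LMPP), and in S phase genes -0.37. These are descriptions across genes that share the same libraries and depth; genes are not independent replicates. The part of length in the differences was not tested.

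**Figure D2:**
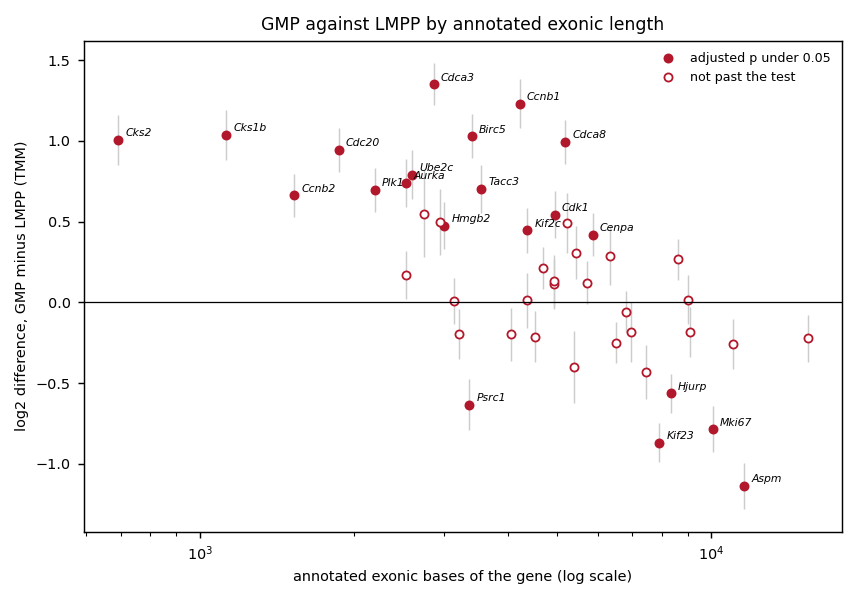
TMM log2 difference between GMP and LMPP (y axis) against annotated exonic bases per gene on a log axis (x axis), 1 point per member with its standard error, filled and named where the adjusted p is under 0.05. Short members such as Cks1b and Cks2 lie near 1 and long ones such as Aspm and Mki67 below 0 (Spearman correlation -0.68, n = 46 genes).

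The members were placed along the cycle, with cells chosen by non-members. In each library the 10% of cells richest in the further G2 genes were compared with the 10% richest in S phase genes, here called G2M-high and S-high sets. Cells found in both were left out, 34 to 44 a library, and 188 to 346 when the richest 20% were taken. This gave 605, 562, 712, 796 and 657 cells a set at 10% for LMPP, CMP and GMP 1 to 3. All 46 members were higher in the G2M-high set in all 5 libraries, as they also were with the richest 5% and 20%. The further G2 genes are themselves genes of G2 and mitosis, and the lists were chosen with earlier results of these data known. That direction is therefore no independent check of the members' label. Ube2c led with a log2 ratio of 3.67 ± 0.648 (SD over 5 libraries), followed by Aspm (3.21 ± 0.567), Cenpa (3.15 ± 0.657), Cenpf (3.03 ± 0.537) and Hmmr (2.90 ± 0.579). Hmmr binds spindle microtubules. At the other end stood Tmpo, a protein of the inner nuclear envelope (0.29 ± 0.184), Cks1b (0.64 ± 0.111), Hjurp (0.79 ± 0.266), Smc4 (0.87 ± 0.331) and Aurkb (0.95 ± 0.228). Tmpo RNA thus differed least between the sets. Neighbours in this order, apart from Tmpo and Cks1b, lie closer together than their spread over libraries.

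**Figure D3:**
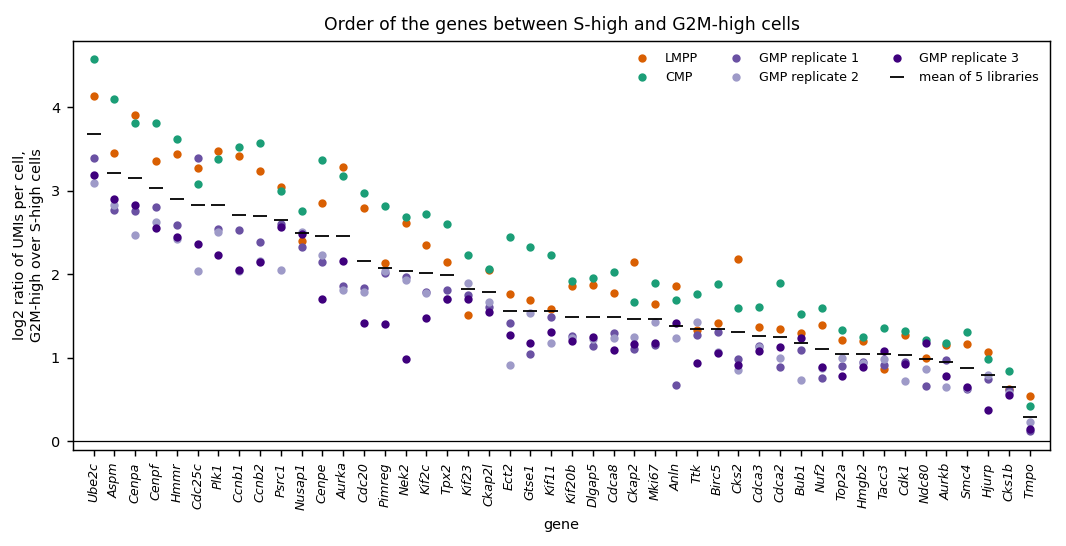
Log2 ratio of UMIs per cell in G2M-high over S-high cells (y axis) for each of the 46 genes (x axis, ordered by mean), 1 point per library with a dash at the mean of the 5 libraries. Every point lies above 0, from Ube2c (mean 3.67) on the left to Tmpo (0.29) on the right.

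The size of the ratio differed between libraries. For Ube2c it was 4.13 and 4.57 in LMPP and CMP, against 3.39, 3.09 and 3.19 in GMP replicates 1 to 3. For Ccnb2 it was 3.24 and 3.58 against 2.39, 2.16 and 2.15. Low cells were those below the median of their own library for both lists. They held 0.114 UMIs of Ube2c on average in LMPP and 0.0930 in CMP, but 0.275, 0.475 and 0.361 in GMP. All these sets were cut within a library, and more GMP cells than LMPP or CMP cells were at 5 or more UMIs of the further G2 genes. Low cells of GMP were thus cut at a higher limit, and the part of this in the ratios was not tested. Across the 46 genes the ratio had a Spearman correlation of -0.25 with the difference between GMP and CMP and of -0.04 with that between GMP and LMPP.

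Cell classes were named after clustering without the members, the other cell cycle lists and genes that follow them, 990 genes in all. Of the genes that follow the cycle, 2 class markers were not left out. Each class named here had fixed markers raised, among them Hlf and Mecom in stem and multipotent-like, Ebf1 and Cd79a in B cell-like, Gata1 and Klf1 in erythroid-like and Irf8 and F13a1 in monocyte-like cells. In LMPP, B cell-like cells (377 cells) had the highest summed member level, 0.869% of UMIs (95% interval 0.861 to 0.877), above erythroid-like (0.738%, 137 cells) and stem and multipotent-like cells (0.529%, 6575 cells). The stem and multipotent-like cells formed a cluster led by Igkc and Jchain beside Hlf and Mecom (0.5092%) and one led by Hlf, Fosb and Fos (0.5405%). Neutrophil-like cells, with S100a8, S100a9 and Fcnb raised, were 2.24% of LMPP (168 cells, 0.527%). In CMP erythroid-like cells led (0.493%, 0.490 to 0.496, 1829 cells), followed by B cell-like (0.429%) and basophil and mast cell-like cells (0.411%), while lymphoid-primed-like cells had 0.374% (2199 cells). B cell-like cells were 5.02% of LMPP and 5.18% of CMP cells, but this class depended on the clustering, at 3.77% and 63.4% at Leiden resolution 0.5 and 7.30% and 1.74% at resolution 2, so that its levels in LMPP and CMP may not be those of the same kind of cell. The lymphoid-primed-like class depended on it too, at 32.1% of CMP cells here and 9.91% at resolution 2. It was 49.6% with cell cycle genes kept and 58.2% with doublets kept, and no cluster took that name at resolution 0.5. Erythroid-like cells, in which Pf4 was raised too, were 1.82% of LMPP and 26.7% of CMP cells, and the 108 of GMP replicate 2 had 0.804%. The class mix therefore moved with the populations, and its part in the library differences was not tested. With 1 library of LMPP and of CMP these values have no replicate check.

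Within GMP, named classes with 100 or more cells in every library had mean summed levels from 0.401 to 0.473%. Monocyte-like cells had 0.473% ± 0.0260 (SD, n = 3), eosinophil-like 0.462% ± 0.00630, neutrophil-like 0.459% ± 0.0374, granulo-monocytic-like 0.411% ± 0.0255 and basophil and mast cell-like cells 0.401% ± 0.0783. Monocyte-like cells included a small cluster of low depth led by Cxcl10, Cxcl2 and Tnf (0.559% ± 0.0243). An unnamed cluster led by Mc5r, Cebpa and Ccl9 had 0.517% ± 0.0460 and lay above each of these classes in every library. Basophil and mast cell-like cells varied most of these between libraries, at 0.359, 0.491 and 0.352% in replicates 1, 2 and 3. They were made of a cluster led by Prss34 and Ms4a2 (0.454% ± 0.0781) and one led by Gzmb and Cma1 (0.283% ± 0.0396), of which the second was below each of these classes in every GMP library. Median UMIs per cell were 4991 to 6331.5 in the basophil and mast cell-like class and 3511 to 4789 in the eosinophil-like class, against 10905 to 15524 in the monocyte-like class; the part of this depth in the differences was not tested.

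**Figure D4:**
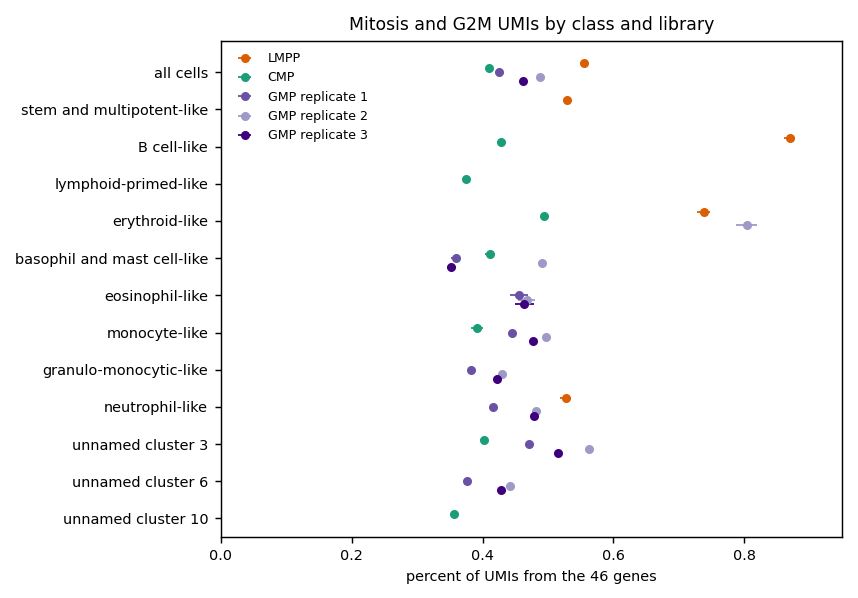
Percent of UMIs from the 46 genes (x axis, from 0) in all cells and in each class with 100 or more cells in a library (y axis), 1 point per library with its exact Poisson 95% interval, which covers counting error only. B cell-like cells of LMPP stand highest at 0.869%, and lymphoid-primed-like cells of CMP at 0.374%.

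Granulo-monocytic-like cells, rich in RNA of the granule proteases, carried less RNA of the mitotic members than monocyte-like cells of the same libraries. With library as a block, 29 members were lower and 2 higher under TMM (background 21.2% and 21.6%), and 38 and 2 under total UMIs (33.9% and 13.3%). Kif23 stood at 16.3, 20.5 and 21.4 CPM in granulo-monocytic-like cells of replicates 1, 2 and 3, against 29.6, 32.0 and 33.5 in monocyte-like cells, without overlap (-0.61 ± 0.05, adjusted p = 1.27e-13). Mki67 stood at 79.3, 109 and 111 against 144, 168 and 167 CPM (-0.59 ± 0.05, adjusted p = 4.00e-14), and Pimreg at 11.5, 11.6 and 11.8 against 19.2, 19.4 and 18.5 (-0.61 ± 0.07). Cks2 and Smc4 were higher in the granulo-monocytic-like cells, Cks2 with 211, 259 and 271 against 176, 211 and 219 CPM (0.39 ± 0.05). Without the library block the counts were 7 lower and 1 higher, by the DESeq2 Wald test 17 and 2, and without the low-depth monocyte-like cluster 30 and 2. No share of all genes called is given for these fits, so their counts have no background.

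Neutrophil-like cells, with S100a8, S100a9 and Fcnb raised, stood above granulo-monocytic-like cells. This class rested on the clustering: at Leiden resolution 0.5, and with cell cycle genes kept, it held at most 1 cell of a GMP library, while granulo-monocytic-like cells grew from 18.2% of GMP cells to 38.2% and 34.5%, so that its comparisons could not be made there. Granulo-monocytic-like cells had 24 members lower and 0 higher under TMM (background 6.85% and 2.91%), with 0 higher also at an unadjusted p under 0.05 and by the DESeq2 Wald test, and 14 lower and 0 higher under total UMIs (2.89% and 11.6%). Ube2c (-0.48 ± 0.07), Aurka (-0.38 ± 0.08) and Birc5 (-0.38 ± 0.05) were among them. Without the library block 0 passed, where 14 had an unadjusted p under 0.05, and without GMP replicate 3 the count was 16. These fits too have no share of all genes beside them. Between monocyte-like and neutrophil-like cells members went both ways under TMM, with 7 higher and 13 lower in monocyte-like cells (20.4% and 22.3%). Nek2 (0.59 ± 0.15), Pimreg (0.57 ± 0.09) and Kif23 (0.44 ± 0.07) were higher and Ube2c (-0.59 ± 0.06) and Cks2 (-0.59 ± 0.05) lower; without GMP replicate 3 the lower count was 8.

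Under TMM, basophil and mast cell-like cells carried less RNA of most members than monocyte-like and neutrophil-like cells. Against monocyte-like cells 30 members were lower and 4 higher under TMM (background 30.2% and 31.6%), and against neutrophil-like cells 27 and 4 (29.6% and 32.1%). Under total UMIs these were 16 and 8 against monocyte-like cells (18.9% and 43.6%) and 13 and 14 against neutrophil-like cells (14% and 53.4%). Birc5 led the lower side against monocyte-like cells (-0.92 ± 0.07, at 125, 166 and 106 against 211, 231 and 219 CPM). Kif23 led the higher side, with 40.8, 51.7 and 58.1 CPM against 29.6, 32.0 and 33.5 (0.44 ± 0.07). The clusters of the class differed in it: the Gzmb and Cma1 cluster had 75.6, 79.8 and 90.3 CPM of Kif23, and the Prss34 cluster 24.4, 42.7 and 37.1, below the monocyte-like level in replicate 1. For Aspm it was the Prss34 cluster that had more, with a mean of 22.4 CPM ± 6.36 against 10.9 ± 6.28 in the other and 14 ± 1.64 in monocyte-like cells. Against granulo-monocytic-like cells the counts were 18 lower and 10 higher (29.3% and 33.1%), again with Kif23 first among the higher (1.04 ± 0.08). Without GMP replicate 2 these became 24 and 2, and under total UMIs 7 and 17 (15.9% and 49.7%). Under both scalings Kif23, Aspm, Ect2 and Cks2 were higher in basophil and mast cell-like than in monocyte-like cells. In CPM of whole libraries Kif23, Aspm and Ect2 were highest in LMPP, while Cks2 was lowest there. The 16 members lower under both scalings held Birc5, Cks1b, Cdca3 and Cdca8. They also held Bub1, Cenpa and Hmgb2, which in CPM of whole libraries were highest in LMPP.

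Eosinophil-like cells, the smallest class tested (133 to 184 cells a library), gave 19 lower and 2 higher against monocyte-like cells (21.7% and 19.7%) and 24 and 4 against neutrophil-like cells (22.8% and 22.3%). Against granulo-monocytic-like cells the counts were 12 lower and 10 higher (21.3% and 21%), near the background. Hmgb2, Cdk1, Cdca8 and Cks1b were lower than in granulo-monocytic-like cells under both scalings, and Mki67, Kif11 and Top2a were higher. Between basophil and mast cell-like and eosinophil-like cells 5 were lower and 3 higher (13.2% and 17.5%), a split that turned in several alternatives. Under total UMIs the counts of these low-UMI classes shifted towards higher calls, to 23 higher and 4 lower for eosinophil-like against granulo-monocytic-like cells (44.8% and 7.91%), 11 and 6 against monocyte-like cells (38.4% and 9.17%) and 18 and 6 against neutrophil-like cells (49.5% and 7.88%). Basophil and mast cell-like cells had 0 higher and 10 lower against eosinophil-like cells under that scaling (11.7% and 21%), with 0 higher also at an unadjusted p under 0.05, and monocyte-like cells 20 higher and 5 lower against neutrophil-like cells (42.7% and 10.2%).

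GMP and CMP were last compared within a class present in both, basophil and mast cell-like cells, with 247 CMP cells and 548, 696 and 361 GMP cells. Of 45 members tested (Gtse1 did not pass the low-count filter), 0 were called in either direction by the edgeR quasi-likelihood test, where 1.82% of 10801 genes were called higher and 0.963% lower; under total UMIs 0 were called too, beside 1.19% and 0.602%. At an unadjusted p under 0.05, 0 were higher and 3 lower, namely Psrc1 (-1.04 ± 0.43), Ckap2 (-0.77 ± 0.29) and Pimreg (-0.61 ± 0.27), with adjusted p of 0.267, 0.208 and 0.324. The median member difference was 0.0085, against 0.0047 over all genes. The CMP cells of this class were 130 of the cluster led by Prss34 (0.502% of UMIs from members) and 117 of the cluster led by Gzmb (0.262%), and the 3 GMP libraries held 292, 416 and 158 cells of the first and 256, 280 and 203 of the second. In the monocyte-like class, with 109 CMP cells and added after seeing the data, 2 of 46 members were higher in GMP by edgeR's test (background 0.104% higher and 0.0455% lower of 15372 genes). At an unadjusted p under 0.05, 22 were higher and 2 lower, beside 5.74% and 4.4% of all genes.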

How the data were processed

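The deposited matrices hold raw UMI counts per gene and cell barcode, 1 matrix per library, per the file headers. Cell Ranger 3.1.0, Seurat 3.1.1 and the build mm10 are named per the submitters' processing notes, while the matrix headers name Cell Ranger 6.1.1; which barcodes were kept is not given in the sources used here. The values are not normalized by the authors, and depth is the total UMI count per library. The members and gene lists were chosen with earlier results of these data known.

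Barcodes with fewer than 500 genes or 1000 UMIs, or over 10% mitochondrial UMIs, were left out, and so were the barcodes with the highest Scrublet doublet scores, at 0.8% per 1000 barcodes (459 to 883 a library). Sums of UMIs for each library entered the quasi-likelihood test of edgeR 4.0.16 (limma 3.58.1, R 4.3.3; TMM factors, filterByExpr, prior count 2) in 1 fit over the 5 libraries, with Benjamini-Hochberg adjustment over all genes tested at 0.05. The 2 residual degrees of freedom come from GMP. CMP against LMPP, and classes of those libraries, have exact Poisson 95% intervals and no test. The 3 GMP libraries carry replicate numbers by the labels, but nothing says they came from separate animals, so p-values may measure technical spread. The code for these tests was tested on simulated data.

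For classes, cells were scaled to 10000 UMIs, and 2000 variable genes without cell cycle genes (the lists, and genes correlated with them over 0.15), 30 principal components, 20 neighbours and Leiden clustering at resolution 1 were used (scanpy 1.11.5, leidenalg 0.10.2). Markers correlated with the lists (2 genes) were not left out. The GMP libraries were set to a common mean per gene before the principal components. Names needed fixed markers raised 1.5-fold. Classes with 100 or more cells in each GMP library were compared with library as a block. Counts per cell were compared after thinning to 5000 UMIs.

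Per-library values are printed, in each role, for the 2 members with the highest mean CPM and the member with the largest absolute log2 difference in each comparison. From the other G2 and S phase lists, the 2 called genes with the largest difference are named. Genes outside this rule were chosen after their values were seen. Lengths and coordinates come from GENCODE on GRCm38, and promoters from RefSeq. Alternatives covered scaling, low-count filter, DESeq2 1.42.0, doublets, barcodes, thinning, clustering, weighting of cells and each GMP library left out. Those without the low-depth monocyte-like cluster, without clusters of low UMIs and within monocyte-like cells were chosen after seeing the data.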

Additional observations from a re-analysis of the deposited data

Results flagged for a closer look

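The summed member level of basophil and mast cell-like cells, set against other classes of the same library, went in opposite directions in CMP and in GMP. Minus that of monocyte-like cells it was 0.0199 percentage points of UMIs in CMP and between -0.1248 and -0.0055 in the 3 GMP libraries. Minus that of the unnamed cluster led by Mc5r, Cebpa and Ccl9 it was 0.0097 points in CMP and between -0.1637 and -0.0714 in GMP. With 1 CMP library, neither difference between CMP and GMP was tested. The CMP values are small and are given without a counting interval.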

How the results depend on the processing

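Under total UMIs, 5 members were called higher and 2 lower in GMP against CMP, and 5 higher and 25 lower against LMPP. That scaling turned 13 TMM differences between GMP and LMPP below 0, to -0.0751 for Cdk1, -0.504 for Cdc25c, -0.4866 for Ttk, -0.6037 for Bub1, -0.2015 for Cenpa, -0.3532 for Cenpe, -0.1723 for Kif2c, -0.4069 for Tpx2, -0.6121 for Ckap2l, -0.6033 for Top2a, -0.1452 for Hmgb2, -0.4962 for Cdca2 and -0.451 for Pimreg. With every cell weighing the same, 13 members were lower than LMPP by limma on log2 CPM, a different test. For that fit the count of members higher and the share of all genes called are not given. Against CMP, 44 of 46 members kept their call with the DESeq2 Wald test and 46 of 46 without a low-count filter or with doublets kept. Without each GMP replicate in turn, 8 to 29 members were higher than CMP and 1 lower, 12 to 22 higher than LMPP and 5 to 8 lower. In the shared basophil and mast cell-like class leaving out each GMP replicate gave 0 calls by edgeR's test, as did total UMIs, both other Leiden resolutions and no low-count filter, and the monocyte-like class gave 2.

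Among GMP classes, total UMIs turned the majority of calls to the higher side for basophil and mast cell-like against granulo-monocytic-like (24 calls) and neutrophil-like cells (27), for eosinophil-like against granulo-monocytic-like (27), monocyte-like (17) and neutrophil-like cells (24), and for monocyte-like against neutrophil-like cells (25), and left 14 calls for granulo-monocytic-like against neutrophil-like cells. Without the library block the calls were 4 for basophil and mast cell-like against eosinophil-like cells, 21 against monocyte-like cells, 8 for granulo-monocytic-like against monocyte-like, 0 against neutrophil-like, and 7 for monocyte-like against neutrophil-like cells, with 4 higher and 3 lower. The split of basophil and mast cell-like against eosinophil-like cells turned at Leiden resolution 0.5 (10 calls), with cell cycle genes kept (11), with doublets kept (8) and without GMP replicate 1 (6). That of monocyte-like against neutrophil-like cells turned at resolution 2 (24 calls), with doublets kept (23) and with no low-count filter (19). The DESeq2 Wald test gave 13 calls there and 19 for granulo-monocytic-like against monocyte-like cells. The cause was not tested. Apart from total UMIs, no share of all genes called is given for these alternatives, so their counts have no background.

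Leaving out each GMP replicate gave 6 to 10 calls for basophil and mast cell-like against eosinophil-like, 26 to 27 against granulo-monocytic-like, 23 to 35 against monocyte-like and 27 to 32 against neutrophil-like cells. It gave 17 to 20, 15 to 19 and 20 to 23 for eosinophil-like against granulo-monocytic-like, monocyte-like and neutrophil-like cells. It gave 26 to 30 for granulo-monocytic-like against monocyte-like, 16 to 23 against neutrophil-like and 14 to 20 for monocyte-like against neutrophil-like cells. Shares of all genes called are not given for any fit with a GMP replicate left out.

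The summed level for LMPP, CMP and the GMP mean was 0.422, 0.3202 and 0.4218% as a mean over cells and 0.3205, 0.2309 and 0.2407% without the 5 highest members. With all barcodes or with doublets kept LMPP had 0.5511 or 0.5512%, and without each replicate the GMP mean lay between 0.444 and 0.475%. The G2M-high share was 58.4, 47.4 and 82.5% at 3 or more UMIs, 27.1, 19.0 and 25.2% at 10 or more, 21.3, 14.7 and 19.4% thinned to 2000 UMIs, 62.2, 50.4 and 84.1% thinned to 8000, and 52.8, 47.2 and 83.7% unthinned. The GMP mean lay below LMPP at 10 or more UMIs and at 2000 UMIs, where GMP replicate 2 lay above it (28.3 and 21.8%). Comparisons of the neutrophil-like class were not run at Leiden resolution 0.5 or with cell cycle genes kept, where GMP held at most 1 such cell a library. No paired analysis was possible because CMP and LMPP have 1 library each and share fewer than 2 replicate numbers with GMP.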
